A study of Homo sapiens with 72 samples.

Results

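The integrated stress response genes described here were ATF4, ATF3, DDIT3, CHAC1, TRIB3, ASNS, SESN2, DDIT4, PPP1R15A and CEBPB, chosen by name as the transcription factors of the response and as targets of ATF4 and of CHOP, the protein that DDIT3 encodes. They were 10 of 56304 genes to which a transcript of the deposited tables could be assigned, and all 10 were among the 20137 genes kept after the filter on low counts. RNA was sequenced from PEO1, an established line that came from a high-grade serous ovarian carcinoma. The cells were given either the solvent DMSO or the PARP inhibitor rucaparib, whose own fluorescence can be read by flow cytometry, at 8.5 µM for 2 h or 24 h. At each time there were 4 groups, namely unsorted vehicle cells (Vehicle), unsorted treated cells (Ruc_Total), and treated cells from the bottom 20% (Ruc_Low) and the top 20% (Ruc_High) of the population by drug fluorescence. Each of the 8 groups had 3 replicates of 3 libraries, and the libraries of a replicate were summed, which gave 24 samples. Cells of the sorted groups had to be detached, strained and kept on ice for the sort, whereas unsorted cells were scraped straight into lysis buffer, and no vehicle cells were sorted, so sorting and detachment cannot be told apart from each other.

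The integrated stress response is the route by which several kinases that sense amino acid shortage, unfolded protein, viral RNA or heme and mitochondrial stress all phosphorylate the translation factor eIF2. General translation then falls while the mRNA of ATF4 is translated more, because of short upstream reading frames, so that the ATF4 protein can change with little change of its mRNA. ATF4 switches on genes of amino acid supply as well as CHOP and ATF3. CHOP is best known for its part in cell death after lasting stress, and PPP1R15A directs a phosphatase to eIF2 and thereby closes the loop.

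Short stretches of promoter sequence show which members carry letters known to be read by these factors. They were taken from RefSeq windows on GRCh38.p14 that run from 250 bases before to 50 bases after an annotated start. The 10 members had 17 such windows. The stretches of CHAC1, ASNS and DDIT3 lie within the gene coordinates given further below. The C/EBP-ATF response element, read by ATF4 with a C/EBP partner, was searched as TGATGNAA on both strands. It was found in 3.62% of 35116 windows and in 3 of the 17 windows of the members, those of ATF3, CHAC1 and ASNS. The cyclic AMP response element TGACGTCA, found in 1.85% of windows, was present in PPP1R15A, and the AP-1 element TGACTCA, found in 4.95%, was present in DDIT3. A match is a description of these letters and not a measured binding site. The stretches below read 5′ to 3′ on the strand of the gene, with the matched letters in capitals. That of CHAC1, on chr15:40953251-40953280 of the plus strand, is the match on the opposite strand. The others lie on chr7:97872458-97872487 of the minus strand for ASNS, chr1:212565205-212565234 of the plus strand for ATF3, chr19:48872352-48872381 of the plus strand for PPP1R15A and chr12:57520735-57520764 of the minus strand for DDIT3.
CHAC1: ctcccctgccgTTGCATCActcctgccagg
ASNS: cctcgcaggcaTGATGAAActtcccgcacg
ATF3: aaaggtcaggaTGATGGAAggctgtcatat
PPP1R15A: gcctctcttcgTGACGTCAgcacgccgggc
DDIT3: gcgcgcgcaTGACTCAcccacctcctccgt

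Library totals ran from 17391033 to 38899905 estimated reads with a median of 33431403.5. The cells carried the markers of serous carcinoma in every sample, for example PAX8 at 143 to 229 CPM (reads scaled to library size and, unless stated, by TMM) and KRT7 at 4922 to 8467 CPM. Of the markers of other cells, DCN, LUM, PTPRC, CD3E, PECAM1 and VWF reached at most 0.524 CPM, while COL1A1 was at 5.60 to 32.8 CPM and CD68 at 13.3 to 26.9 CPM. Throughout, a gene passed when its adjusted p in edgeR's quasi-likelihood test, with Benjamini-Hochberg adjustment over all genes tested, was under 0.05. A fit that also held the replicate number as a block is given where it changed a call. The comparisons below share samples and are not independent of each other.

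Per unit of length, in TPM (reads scaled to transcript length and library size), ASNS and DDIT4 stood highest in the vehicle cells at 2 h, at 74.2 ± 28.1 and 52.4 ± 34.2 (SD, n = 3), followed by CEBPB at 50.6 ± 7.19. CHAC1 at 3.92 ± 0.481 and SESN2 at 2.08 ± 0.218 TPM stood lowest, and the ranges of these last 2 genes were apart from each other. In ascending order of level DDIT3 was at 14.97 ± 3.56, ATF3 at 20.3 ± 16.3, ATF4 at 27.9 ± 7.005, TRIB3 at 28.6 ± 7.04 and PPP1R15A at 33.4 ± 19.9 TPM, with SDs larger than most steps between them. The ATF4 level is drawn from 3 transcripts, and transcripts added to the annotation after GENCODE release 29 could not be assigned, so the sums may hold only part of a gene's reads.

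**Figure D1:**
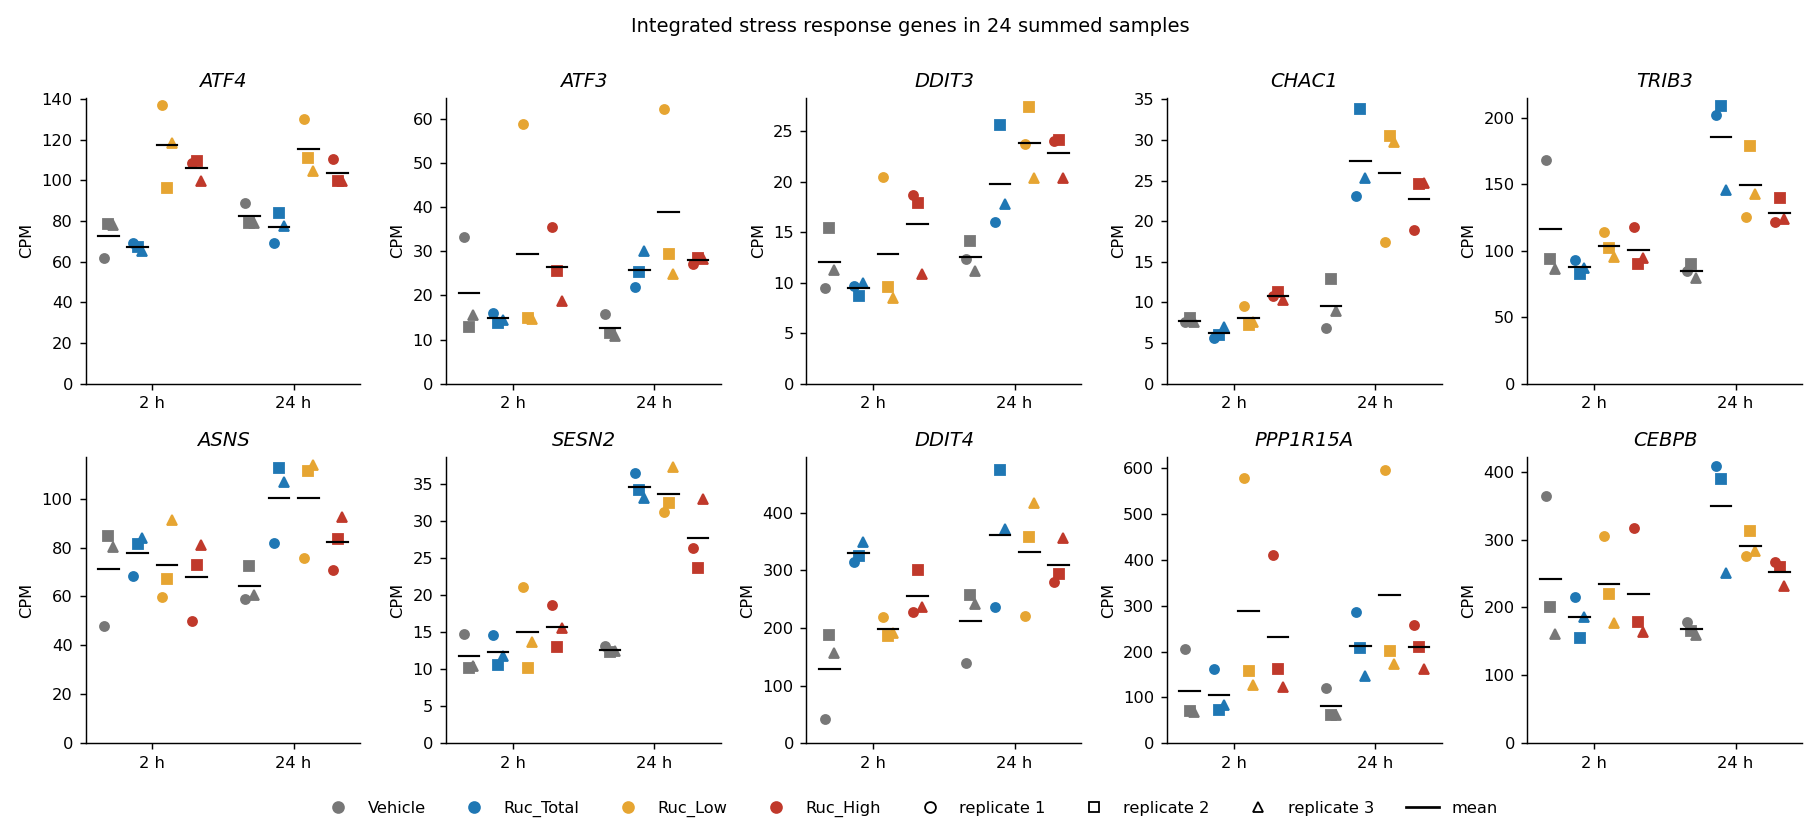
Level of each of the 10 genes in CPM (y axis, from 0) in the 24 samples, by time (x axis) and group (colour), with 1 symbol per replicate and a bar at the group mean. CHAC1 and SESN2 separate the treated groups at 24 h from every other group, whereas ATF4 separates the sorted cells, at 96.3 CPM or more, from the unsorted cells, at 88.8 CPM or less. The share of all genes with such splits was not counted.

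The question of whether the drug changed these genes in unsorted cells was answered differently by time. At 24 h, 4 of the 10 genes rose in Ruc_Total against Vehicle and none fell. These were CHAC1, SESN2, TRIB3 and CEBPB, and 3.35% of all genes passed in that comparison. With the replicate block 7 rose, with ASNS, ATF3 and PPP1R15A added, against 24.0% of all genes. The median log2 fold change of the 10 was 1.04, beside 0.028 over all genes. The 3 samples of each group did not overlap for 8 members, all higher with the drug, where 24.7% of all genes were apart in either direction. At 2 h none of the 10 passed, while 0.0248% of genes did without the block and 0.144% with it. A single member, DDIT4, had an unadjusted p under 0.05 at 2 h, as did 1317 of the 20137 genes, so 1 of the 10 is close to the share of all genes. It was also the 1 member that DESeq2 called, for which the share of all genes is not given here.

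Among the transcription factors, ATF4 itself, the master regulator of the response (chromosome 22, 39519695 to 39522685, GRCh38), was at 88.8, 79.0 and 79.0 CPM in Vehicle and 69.4, 83.9 and 77.5 CPM in Ruc_Total at 24 h. The groups overlapped, and the log2 difference of −0.10 (SE 0.12) did not pass in edgeR (adjusted p = 0.656). At 2 h Vehicle was at 61.7, 78.7 and 78.3 CPM and Ruc_Total at 68.96, 67.1 and 65.1 CPM. Treated and vehicle samples overlapped at both times, and the ATF4 protein was not measured in these libraries.

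DDIT3 (chromosome 12, 57516588 to 57521737), which encodes CHOP, was at 12.4, 14.2 and 11.1 CPM in Vehicle and 16.01, 25.6 and 17.8 CPM in Ruc_Total at 24 h. All treated samples lay above all vehicle samples, yet the log2 fold change of 0.66 (SE 0.28) did not pass in edgeR (adjusted p = 0.157, and 0.0616 with the block). At 2 h the estimate was −0.35 (SE 0.28).

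ATF3 (chromosome 1, 212565334 to 212620777), a factor that is induced by many stresses and that is itself a target of ATF4, was at 15.9, 11.5 and 10.8 CPM in Vehicle and 21.9, 25.4 and 30.1 CPM in Ruc_Total at 24 h. The groups were apart, and the log2 fold change of 1.02 (SE 0.46) did not pass in edgeR (adjusted p = 0.177) and did with the block (0.028). Without replicate 1 it was 1.32 and passed (edgeR adjusted p = 0.00564), and limma-voom on the 72 libraries called it as well. Counts at this gene were low, and replicate 1 of Vehicle at 2 h stood at 33.3 CPM where the other replicates were at 12.9 and 15.5 CPM.

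CEBPB (chromosome 20, 50190734 to 50192689) encodes C/EBPβ, which pairs with ATF4 and CHOP. It was at 178, 165 and 160.1 CPM in Vehicle at 24 h and at 408, 389 and 251 CPM in Ruc_Total. The treated samples were all higher, by 1.06 on the log2 scale (SE 0.28, edgeR adjusted p = 0.0429). Of the 10 members, CEBPB had the strongest correlation with transcript length. The mean transcript length of a sample, weighted by its reads, was 2746 and 2711 bases in replicates 1 and 2 of Ruc_Total at 24 h, beside 3107 to 3231 bases in Vehicle. Across the 24 samples, after the group means were removed, CEBPB had r = −0.79 with that length and TRIB3 r = −0.68, given as a description of libraries that share a preparation. With an offset for effective length the CEBPB estimate was 0.57 and did not pass (edgeR adjusted p = 0.31). On log2(TPM + 1) it was 0.41 and did not pass (limma adjusted p = 0.395). CEBPB did pass in the fit with the block and transcript length. It also passed without the libraries under 2800 bases of mean transcript length. In TPM, CEBPB was at 53.5 ± 8.77 in Vehicle and 71.3 ± 12.6 in Ruc_Total (SD, n = 3).

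Of the targets that carry out the response, CHAC1 and SESN2 had the lowest adjusted p at 24 h. CHAC1 (chromosome 15, 40952962 to 40956519), which breaks down glutathione, was at 6.91, 12.8 and 8.99 CPM in Vehicle at 24 h. In Ruc_Total it was at 23.1, 33.8 and 25.3 CPM. Every treated sample lay above every vehicle sample, and CHAC1 rose by 1.51 on the log2 scale (SE 0.22, edgeR adjusted p = 0.00161). The differences within replicates 1, 2 and 3 were 1.74, 1.40 and 1.49. At 2 h the order was the other way, with 7.59, 8.09 and 7.63 CPM in Vehicle and 5.59, 6.03 and 7.03 CPM in Ruc_Total, groups that did not overlap but whose log2 difference of −0.32 (SE 0.22) did not pass (edgeR adjusted p = 0.899).

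SESN2 (chromosome 1, 28259527 to 28282491), a leucine sensor and restraint on mTORC1 that p53 also induces, had narrow groups at 24 h, with 13.1, 12.3 and 12.4 CPM in Vehicle. Ruc_Total was at 36.4, 34.2 and 33.1 CPM. The groups lay far apart, and SESN2 rose by 1.45 on the log2 scale (SE 0.21, edgeR adjusted p = 0.00168), with 1.47, 1.47 and 1.41 within the 3 replicates. At 2 h the vehicle samples, at 14.7, 10.2 and 10.4 CPM, overlapped with the treated ones, at 14.6, 10.6 and 11.8 CPM. SESN2 was counted from 1 transcript. The window of its promoter held none of the 4 motifs searched, and neither did those of ATF4, TRIB3, DDIT4 and CEBPB.

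TRIB3 (chromosome 20, 362835 to 397559), a pseudokinase induced by ATF4 and CHOP that restrains both, was at 84.7, 90.0 and 79.8 CPM in Vehicle at 24 h and 202, 209 and 146 CPM in Ruc_Total. It rose in all 3 replicates, by 1.13 on the log2 scale (SE 0.20, edgeR adjusted p = 0.00599). With the effective-length offset the estimate was 0.93 and did not pass (adjusted p = 0.0501). At 2 h the estimate was −0.41 (SE 0.20), with 1 of 3 vehicle samples, at 168 CPM, well above the others at 94.2 and 86.2 CPM.

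ASNS (chromosome 7, 97852118 to 97872542), which makes asparagine, was at 59.1, 72.5 and 60.7 CPM in Vehicle and 81.8, 112 and 107 CPM in Ruc_Total at 24 h. The groups were apart, and the log2 fold change of 0.65 (SE 0.22) did not pass in edgeR (adjusted p = 0.0997) and did with the block (0.00218). It also passed in DESeq2 (adjusted p = 0.0449) and, in edgeR, without replicate 1 (0.72, adjusted p = 0.0428), without the libraries under 2800 bases of mean transcript length (0.0474) and without 4 libraries described under DDIT4 (0.0469). At 2 h it was 0.13 (SE 0.22).

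PPP1R15A (chromosome 19, 48872392 to 48876057), the subunit known as GADD34 that closes the loop, was at 121, 62.5 and 60.9 CPM in Vehicle at 24 h. In Ruc_Total it was at 287, 207 and 146 CPM. Replicate 1 was the highest of the 3 in all 8 groups, and the log2 fold change of 1.39 (SE 0.62) did not pass in edgeR (adjusted p = 0.179) and did with the block (0.00109). Without replicate 1 it was 1.52 and passed (edgeR adjusted p = 0.00838), and limma-voom on the 72 libraries called it as well. Within replicates it was higher by 1.24, 1.73 and 1.26. At 2 h Vehicle was at 206, 71.6 and 67.4 CPM and Ruc_Total at 163, 72.03 and 82.9 CPM, which overlapped.

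DDIT4 (chromosome 10, 72273920 to 72276036), the mTORC1 inhibitor REDD1, was the member with the highest early value. At 2 h it was at 42.2, 188 and 156 CPM in Vehicle and at 315, 325 and 349.5 CPM in Ruc_Total. The groups were apart and the difference was above 0 in 3 of 3 replicates, at 2.90, 0.79 and 1.16. The log2 fold change of 1.36 (SE 0.37) did not pass in edgeR (adjusted p = 0.334, and 0.0543 with the block). It was, with CHAC1, 1 of the 2 members that did not overlap at 2 h, where 8.51% of all genes were apart. At 24 h Vehicle was at 140.1, 257 and 241 CPM and Ruc_Total at 236, 474 and 372 CPM, which overlapped, with an estimate of 0.76 (SE 0.37) that did not pass (adjusted p = 0.21, and 0.0723 with the block).

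DDIT4 also stood apart at the level of single libraries. Its coding transcript had 0 reads in 4 of 72 libraries, in which the gene was at 13.6 to 55.5 CPM without TMM scaling. In the other 68 the gene was at 43.98 to 540.5 CPM and 63.8% to 97.0% of its reads lay on that transcript. One of the 4 was in replicate 1 of Vehicle at 2 h, whose other libraries, with reads on the coding transcript, were at 52.3 and 43.98 CPM. Without the 4 libraries the 2 h estimate was 1.32 (edgeR adjusted p = 0.24), and with the block in addition it was 1.42 and passed (adjusted p = 0.0394). Another of the 4 was in replicate 1 of Ruc_Total at 24 h, and without the 4 libraries the 24 h estimate with the block was 0.89 and passed (edgeR adjusted p = 0.0253).

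**Figure D2:**
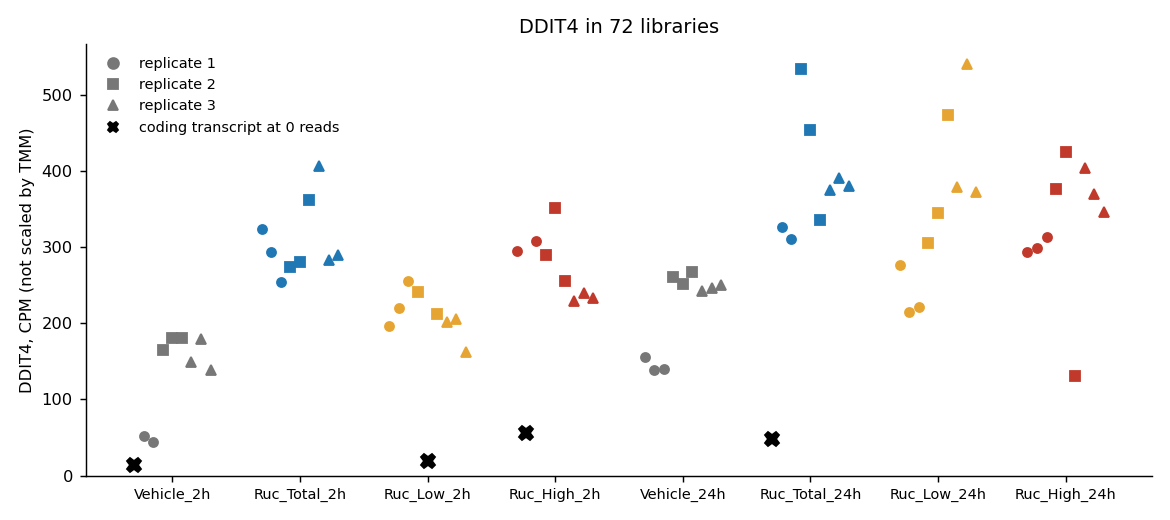
DDIT4 in CPM, not scaled by TMM (y axis, from 0), in each of the 72 libraries by group (x axis), with symbols for the replicates and a cross where the coding transcript was at 0 reads. The 4 crosses lie between 13.6 and 55.5 CPM, and the vehicle libraries of replicate 1 at 2 h lie low with and without a cross.

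The difference between the drug's effects at 24 h and 2 h was tested as an interaction. Without the block 2 members passed, both larger at 24 h, where 0.139% of all genes passed. These were CHAC1, by 1.84 on the log2 scale (SE 0.31, edgeR adjusted p = 0.0286), and TRIB3, by 1.54 (SE 0.28, adjusted p = 0.0376). With the block 6 members passed, against 18.1% of genes, with SESN2 (1.38, adjusted p = 0.00316), CEBPB (1.35, 0.00722), PPP1R15A (1.43, 0.0133) and ATF3 (1.47, 0.0451) added. The DDIT4 estimate had the opposite sign, −0.59 (SE 0.52), and that of ATF4 was 0.02 (SE 0.17). In vehicle cells alone none of the 10 passed between 24 h and 2 h, where 0.0248% of genes passed in edgeR without the block and 9.42% with it, and DESeq2 called none. A single member (TRIB3, −0.45) had an unadjusted p under 0.05, as did 3508 of the 20137 genes. DDIT4 was higher at 24 h in 3 of 3 vehicle replicates, by 1.73, 0.45 and 0.63. One member, ATF4, had vehicle samples that did not overlap between the times (79.0 CPM or more against 78.7 CPM or less), where 18.9% of all genes were apart.

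**Figure D3:**
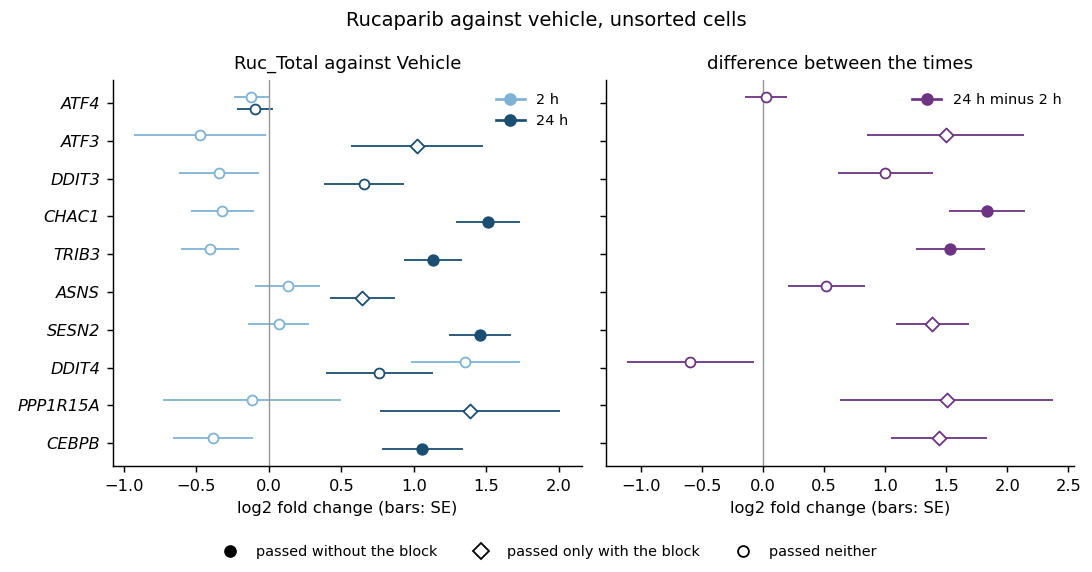
Log2 fold change of each gene between Ruc_Total and Vehicle at 2 h and 24 h (left) and the difference between the times (right), with bars of 1 SE. Filled circles passed without the replicate block (4 genes at 24 h and 2 for the difference), diamonds with it but not without it, and open circles in neither of these fits.

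Without replicate 2 none of the 10 passed at 24 h, while the estimates of CHAC1 (1.58) and SESN2 (1.42) stayed close to those of all 3 replicates (edgeR adjusted p = 0.2 for each). Without replicate 1 or without replicate 2 no member passed the interaction, with estimates of 1.70 and 1.86 for CHAC1 and 1.15 and 1.55 for TRIB3. With the block 5 members passed without replicate 1 and none without replicate 2. The share of all genes that passed with a replicate left out is not given here. Whether the loss of calls was particular to the members was thus not tested.

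Whether the amount of drug in a cell went with these genes was asked by comparing Ruc_High with Ruc_Low. None of the 10 passed at 2 h, where 0.00497% of genes passed without the block and 0.377% with it. None passed at 24 h either, where the shares were 0.109% and 0.611%. No member had an unadjusted p under 0.05 in edgeR without the block, and DESeq2 called none at either time. At 24 h all 10 estimates were below 0 without the block, with a median of −0.209 beside −0.007 over all genes. The sizes ran from −0.06 (SE 0.28) for DDIT3 to −0.63 (SE 0.61) for PPP1R15A. The sign did not hold in every fit. Over the fits that kept all replicates DDIT3 ran from −0.07 to 0.05 and DDIT4 from −0.16 to 0.06. ATF3 reached 0.07 with a replicate left out. The 10 estimates come from the same samples and are not independent of each other. PPP1R15A, the member with the largest error, was at 597, 202 and 174 CPM in Ruc_Low and 259, 211 and 161 CPM in Ruc_High. It differed most in replicate 1. ATF4, TRIB3, ASNS, SESN2 and CEBPB were below 0 in 3 of 3 replicates, for example SESN2 at −0.25, −0.45 and −0.18. None of these passed in either fit, and the share of all genes with the same sign in 3 of 3 replicates was not counted.

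CHAC1 and DDIT4 had ranges apart at 2 h, both higher in Ruc_High, where 6.33% of all genes were apart. CHAC1 was at 9.61, 7.18 and 7.55 CPM in Ruc_Low and 10.8, 11.3 and 10.3 CPM in Ruc_High, a log2 difference of 0.41 (SE 0.22, edgeR adjusted p = 1). DDIT4 was at 219, 187 and 191 CPM in Ruc_Low and 228, 301 and 236 CPM in Ruc_High, a difference of 0.36 (SE 0.37). At 24 h the ranges of CEBPB were apart in the other direction, at 276, 312 and 284 CPM in Ruc_Low and 267, 259.7 and 232 CPM in Ruc_High, where 8.76% of genes were apart.

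ATF4 was the 1 member that passed between sorted and unsorted treated cells at both times. At 2 h it was at 137, 96.3 and 119 CPM in Ruc_Low and 109, 109 and 99.6 CPM in Ruc_High, beside 65.1 to 68.96 CPM in Ruc_Total. It rose by 0.73 on the log2 scale (SE 0.11, edgeR adjusted p = 0.0026), the single member to pass where 2.41% of genes did. At 24 h it was at 130.4, 111 and 105 CPM in Ruc_Low and 111, 99.7 and 99.8 CPM in Ruc_High. The mean of the sorted groups was higher by 0.51 (SE 0.11, edgeR adjusted p = 0.00909), again the single member. Of all genes 9.47% passed at 24 h without the block and 24.7% with it. A single call among the 10 members was thus about the share of all genes, or below it. All 12 sorted samples lay above all 12 unsorted samples, vehicle included. The share of all genes split in this way was not counted. Without replicate 2 the call was lost at both times in edgeR, at estimates of 0.81 and 0.62 (adjusted p = 0.228 and 0.183). It was also lost without replicate 3 at 2 h (0.76, adjusted p = 0.128) and without replicate 1 at 24 h (0.36, adjusted p = 0.0767). With the block ATF4 passed in each of these cases but 1, that without replicate 2 at 24 h (adjusted p = 0.0504).

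With the block 2 further members passed at 2 h, where 14.9% of genes did. CHAC1 was higher by 0.60 (adjusted p = 0.0236, and 0.104 without the block) and PPP1R15A by 1.12 (adjusted p = 0.00371, and 0.232 without it). Replicate 1 of Ruc_Low carried PPP1R15A at 579 CPM and ATF3 at 58.8 CPM, where the other replicates were at 157 and 127 CPM and at 14.9 and 14.6 CPM.

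Genes that respond within minutes to handling moved with the same split. There 2.41% of all genes passed at 2 h and 9.47% at 24 h, without the block. Of 15 genes of handling and dissociation 7 rose at both times, including EGR1 (5.18 at 2 h and 4.85 at 24 h on the log2 scale), FOS (4.29 and 3.96) and FOSB (3.75 and 3.36), with list medians of 1.18 and 0.665. Their summed level was 2290 to 2618 CPM in Ruc_Total at 2 h and 3869 to 6052 CPM in the sorted groups, and 2014 to 2404 and 3101 to 4621 CPM at 24 h. Mitochondrial reads were 1.77% to 4.68% of the total in sorted samples and 0.37% to 1.55% in unsorted ones. The part of either in the ATF4 difference was not tested. In a bulk sample, fewer cells that express a gene and less RNA per cell cannot be told apart.

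**Figure D4:**
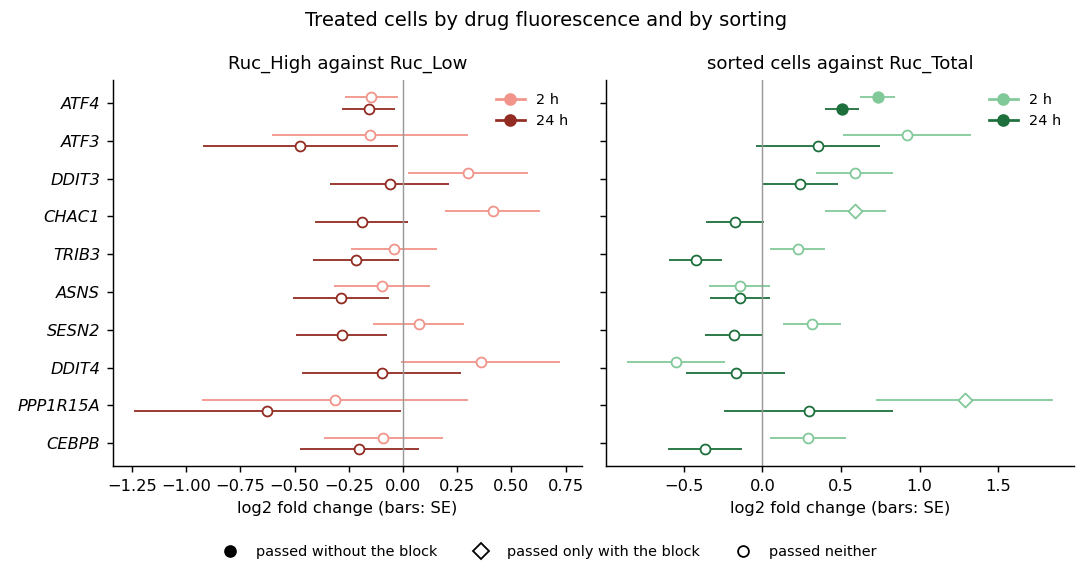
Log2 fold change between Ruc_High and Ruc_Low (left) and between the mean of the sorted groups and Ruc_Total (right) at 2 h and 24 h, with bars of 1 SE. In the left panel no gene passed, and in the right panel ATF4 passed at both times without the replicate block and CHAC1 and PPP1R15A (diamonds) at 2 h with it.

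A rise with time was also measured among treated cells that were sorted at both times. Against 2 h, the sorted groups at 24 h were higher for CHAC1 by 1.37 (SE 0.16, edgeR adjusted p = 7.53e-05), SESN2 by 0.99 (SE 0.15, adjusted p = 0.000928) and DDIT3 by 0.71 (SE 0.20, adjusted p = 0.0467), that is 3 of 10 where 3.90% of genes passed. With the block ASNS (0.38, adjusted p = 0.00792) and TRIB3 (0.44, adjusted p = 0.0261) were added, 5 of 10 where 12.8% passed. CHAC1 was at 17.5 to 30.4 CPM in the 6 sorted samples at 24 h and 7.18 to 11.3 CPM at 2 h. SESN2 was at 23.7 to 37.2 and 10.1 to 21.04 CPM. Neither gene overlapped, but the share of all genes apart in this comparison was not counted. DDIT3 was at 20.4 to 27.4 and 8.51 to 20.5 CPM, which overlapped. The DDIT3 call was lost with the effective-length offset (0.71, edgeR adjusted p = 0.0898), with protein-coding transcripts (0.71, 0.0533), with only the groups compared (0.72, 0.113) and without the libraries under 2800 bases (0.64, 0.0513). Without replicate 2 none passed, at estimates of 1.26 for CHAC1, 0.89 for SESN2 and 0.61 for DDIT3. Without replicate 3 CHAC1 alone did, with SESN2 at 0.85 and DDIT3 at 0.59, and without replicate 1 there were 6. The share of all genes that passed in these fits is not given here. No sorted vehicle cells were available, so time and drug cannot be told apart in this comparison.

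Set in order of their group means, the members fell into few steps. How many of all genes have such steps was not counted. For SESN2 the 3 treated groups at 24 h (Ruc_Total 34.6 ± 1.72, Ruc_Low 33.6 ± 3.20 and Ruc_High 27.6 ± 4.76 CPM, SD, n = 3) overlapped with each other and were apart from all groups below them, at 11.8 to 15.7 CPM. For CHAC1 the same 3 groups (27.4 ± 5.66, 25.9 ± 7.29 and 22.7 ± 3.28 CPM) were apart from the rest, and Ruc_Total at 2 h (6.22 ± 0.737 CPM) was lowest and apart from Vehicle at 2 h. For ATF4 the single step lay between the 4 sorted groups, at 103 to 117 CPM, and the 4 unsorted groups, at 67.1 to 82.2 CPM. CEBPB had a step between Ruc_Low and Ruc_High at 24 h, and for the other 6 members all neighbours overlapped.

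The members did not move as a unit. Over the 24 samples Pearson's r of log2 CPM between members, of which there were 45 pairs, ran from −0.16 to 0.92 with a median of 0.56, and the highest was that of TRIB3 with CEBPB. With group means removed the range was −0.89 to 0.87 and the median 0.29. These are descriptions, since the samples share groups, libraries and depth. Among the genes most like ATF4 over the 24 samples were TBRG1 (r = 0.919), ZFP36 (0.892), ZNF354A (0.892) and LRRFIP1P1 (0.884). ZFP36 is also on the list of handling genes. Those most like DDIT3 were LURAP1L (0.908), TXNIP (0.881), LIN37 (0.870), ZNF133 (0.861) and NEURL2 (0.856), of which LURAP1L and NEURL2 had mean levels of 1.56 and 1.40 CPM.

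Around the 10 members, the rest of the pathway at 24 h (Ruc_Total against Vehicle) was read from further lists. For these lists and those below, 3.35% of all genes passed in this comparison without the block and 24.0% with it. Among targets of ATF4 for amino acid synthesis and transport 5 of 19 rose and none fell (10 and 1 with the block), with a median of 0.485. The highest were PCK2, a mitochondrial enzyme of gluconeogenesis, by 1.04 (SE 0.23), CTH, which makes cysteine, by 0.73 (SE 0.17), and GPT2, a mitochondrial aminotransferase, by 0.53 (SE 0.14). Among other targets of ATF4 and CHOP 5 of 20 rose and none fell (10 and 0 with the block), with a median of 0.554, led by BBC3, the cell death gene PUMA, by 1.03, NUPR1, a stress-induced chromatin protein, by 0.88 and EIF4EBP1, a repressor of cap-dependent translation, by 0.86. Among tRNA synthetases and the exporter XPOT 2 of 13 rose, SARS1 by 0.71 and MARS1 by 0.33, and none fell (4 and 1 with the block), with a median of 0.197.

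The upstream part of the pathway gave no call in that fit. None of 16 genes of the eIF2 kinases and the eIF2 cycle passed in edgeR without the block (8 had an unadjusted p under 0.05, as did 4936 of all 20137 genes, and 5 rose and 2 fell with the block), with a median of −0.041. None of 12 paralogs of the members passed without the block, with a median of −0.074. Of these paralogs 4 had an unadjusted p under 0.05, against the same 4936 of 20137. With the block 2 of them rose and 1 fell, where 24.0% of all genes passed. In the ATF6 and XBP1 arms of the unfolded protein response, which run beside the eIF2 arm, XBP1 rose by 0.85 and the secreted factor MANF by 0.45, 2 of 15 with none lower (4 and 2 with the block) and a median of 0.004. XBP1 also passed the interaction, by 1.24 (edgeR adjusted p = 0.0499).

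Targets of p53, a list that shares BBC3 and TNFRSF10B with the other targets of ATF4 and CHOP, rose in 7 of 19 tested cases and fell in none (9 and 2 with the block), with a median of 0.379. CDKN1A, the cell cycle inhibitor p21, was highest at 2.05, followed by GADD45A at 1.87. Handling genes also moved in these unsorted cells, with 3 of 15 higher and none lower (7 and 0 with the block), namely KLF6 by 1.14, IER3 by 1.09 and the chaperone HSPA1A by 0.77. Their summed level was 1384 to 1541 CPM in Vehicle and 2014 to 2404 CPM in Ruc_Total at 24 h, and their part in the members' values was not tested. At 2 h no gene of any of these lists passed without the block, where 0.0248% of all genes did.

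**Figure D5:**
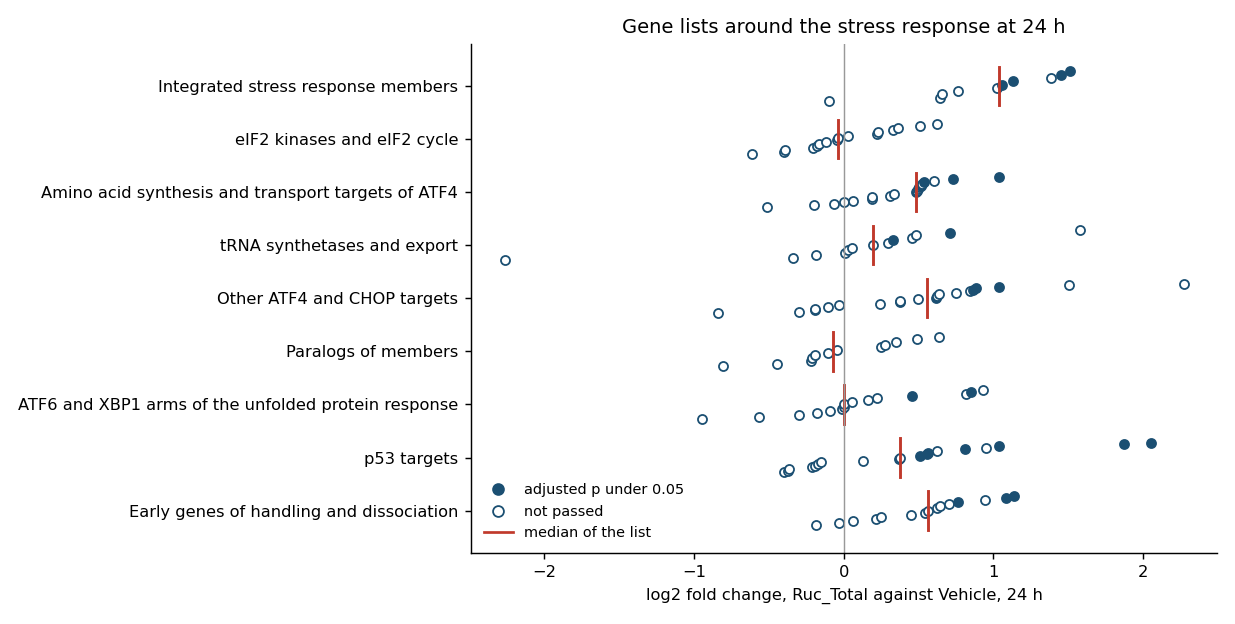
Log2 fold change at 24 h (Ruc_Total against Vehicle, x axis) of every tested gene of the members' list and of the 8 further lists (rows), with filled points for adjusted p under 0.05 without the replicate block and a red line at the list's median. The median of the members lies at 1.04, that of the other ATF4 and CHOP targets at 0.554 and that of the eIF2 kinases and cycle at −0.041.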

How the data were processed

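Poly(A) RNA libraries from a stranded kit were deposited per library as Salmon tables of estimated counts per transcript, TPM values and effective lengths, which the authors made after cutadapt 4.7 on GRCh38. The Salmon version and the transcript annotation are not given in the sources used here, and the submitters' notes also name DESeq2 1.44.0. Of 257369 transcripts per table, 194437 were assigned to genes with GENCODE release 29 and 11676 by its symbol table. The other 51256 held 7.10% to 8.95% of a library's reads. Estimated counts were summed per gene and over the 3 libraries of a replicate, rounded, and tested in edgeR 4.0.16 (R 4.3.3) with filterByExpr, TMM and 1 quasi-likelihood fit of all 24 samples. The p-values are adjusted over 20137 genes. No 2 libraries were identical.

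Per the study's methods, the replicates of a sort were made on separate days. With group means removed, samples of the same number had a median r of 0.543 (84 pairs, lowest −0.443) and those of other numbers −0.315 (168 pairs), over the top 5000 genes, and the block was fitted as an alternative. The other 21 alternatives concerned the tool, normalization, filter, unit, transcript length, samples, replicates and libraries, and those leaving out libraries, or a replicate within the block, were chosen after seeing the data. The members and gene lists were chosen with earlier results of these data known. Named list genes were up to 3 per direction and comparison past the threshold with the largest fold and a mean of at least 5 CPM, the other list genes being given by count. Genes like ATF4 and DDIT3 were the 5 with the highest r, of which 1 is not reported here. The edgeR fit without the block was also run on simulated counts. These held no shared effect of the replicate number, so that run cannot judge the block. Protein sequences were not used here.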

Additional observations from a re-analysis of the deposited data

Results flagged for a closer look

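In groups of 9 libraries, 12 of 80 combinations of gene and group had a library farther from the rest than Dixon's criterion allows. Chance gives about 5% among independent values, a share that does not apply as such here, since each group held 3 libraries from each of 3 replicates. All levels here are in CPM without TMM scaling. For ATF4 these were the lowest library of Ruc_Low at 2 h (39.9, replicate 2 library 2), the lowest of Ruc_Total at 24 h (56.8, replicate 1 library 1) and the highest of Ruc_Low at 24 h (160, replicate 1 library 1). For TRIB3 they were the highest libraries of Vehicle at 2 h (220, replicate 1 library 1), Ruc_Low at 2 h (186, replicate 2 library 2) and Ruc_High at 2 h (144, replicate 1 library 2). For ASNS they were the lowest of Vehicle at 2 h (19.7, replicate 1 library 1) and of Ruc_Low at 2 h (15, replicate 2 library 2).

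For DDIT4 they were the lowest of Ruc_Low at 2 h (19.2, replicate 2 library 2), Ruc_High at 2 h (55.5, replicate 1 library 2), Ruc_Total at 24 h (48.4, replicate 1 library 1) and Ruc_High at 24 h (131, replicate 2 library 3). The first 3 of these are among the 4 libraries with the coding transcript at 0. The libraries of Vehicle at 2 h (replicate 1 library 1, 22092472 reads) and of Ruc_Low at 2 h (replicate 2 library 2, 17391033 reads) that recur here had the lowest totals of all 72. The part of depth in these values was not tested.

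The effect of rucaparib in unsorted cells differed between the times by the interaction test for CHAC1 (1.84 on the log2 scale) and TRIB3 (1.54), both larger at 24 h.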

How the results depend on the processing

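Over 22 alternatives, 14 of them planned, 1971 values of single members gave 0 reversals of a called value, 119 became calls and 43 lost a call. For Ruc_Total against Vehicle at 24 h (4 members called) the counts were 2 with the effective-length offset, 1 with only the groups compared, 2 with protein-coding transcripts (SESN2 had no value there), 7 with the replicate block, 7 with the block and transcript length, and 9 with the block without the 2 libraries of lowest total or without the 4 with DDIT4's coding transcript at 0. Leaving out a replicate gave 0 to 6, and 2 to 9 with the block. At 2 h (none called) DDIT4 alone passed, 1 member, in DESeq2, with block and length, and with the block without either set of libraries. For the interaction (2 called) the counts were 5 in limma-voom on 72 libraries, 4 in DESeq2, without the filter and without libraries under 2800 bases, 0 with the offset, on log2(TPM + 1) and with only the groups compared, 6 with the block, 4 with block and length, 8 with the block without either set, 0 to 4 without a replicate and 0 to 5 in the blocked fit. For sorted cells against Ruc_Total at 2 h (1 called) they were 4, 2 and 3 in limma-voom, DESeq2 and with only the groups compared, 3 with the block, 4 with block and length, 3 and 4 with the block without the 2 or the 4 libraries, 0 to 2 without a replicate and 1 to 3 in the blocked fit. At 24 h (1 called) they were 0 with only the groups compared, 2 with the block without the 2 libraries, and 0 to 1 without a replicate in either fit. For sorted cells at 24 h against 2 h (3 called) they were 1 with protein-coding transcripts, 5, 6, 5 and 6 with the block, with block and length and with the block without the 2 or the 4 libraries, 0 to 6 without a replicate and 2 to 9 in the blocked fit. The share of all genes that passed shifted as well. With the block it went from 3.35% to 24.0% for Ruc_Total against Vehicle at 24 h. For the interaction it went from 0.139% to 18.1%. For alternatives other than the block these shares are not given here, so the counts alone are no result about the members. The cause of these shifts was not tested. CHAC1, DDIT3, SESN2 and ATF3 have the lowest counts of the members, and 3 replicates limit each comparison.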

Other observations

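Genes of the lists around the stress response that passed in comparisons other than that of unsorted cells at 24 h are given here as log2 differences from edgeR without the replicate block, unless stated. Between Ruc_High and Ruc_Low a single list gene passed, TP53INP1, a target of p53 that takes part in autophagy and cell death. It was higher in Ruc_High by 1.19 at 24 h (SE 0.21, adjusted p = 0.0327), where 0.109% of all genes passed. At 2 h it was higher by 1.14 with the block (SE 0.16, adjusted p = 0.00326), where 0.377% passed. For this gene Ruc_Total against Vehicle at 24 h gave −0.40 (SE 0.21), which did not pass (edgeR adjusted p = 0.238). Its mean level was 5.21 CPM.

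Between sorted cells and Ruc_Total, TRIB1, a paralog of TRIB3, was higher by 0.93 at 2 h and 0.65 at 24 h. Of all genes 2.41% passed there at 2 h and 9.47% at 24 h. At 24 h 1 of 19 targets of ATF4 for amino acid supply rose, the transporter SLC38A2 by 0.54, and 2 fell, PHGDH by −0.41 and ALDH18A1 by −0.26. BCL2L11 rose by 0.48, while LONP1 (−0.48), EIF2B3 (−0.59), BAX (−0.36) and the keratin KRT7 (−0.44) fell.

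Among sorted cells from 2 h to 24 h, where 3.90% of all genes passed, 5 of 19 targets of ATF4 for amino acid supply rose. They were led by SLC38A2 (0.71), CTH (0.60) and SLC1A4 (0.57), and SLC7A5 fell (−0.52). Of the other ATF4 and CHOP targets VEGFA (0.85) and NUPR1 (0.72) rose and none fell. Of the paralogs of the members TRIB1 fell (−0.63). The p53 target TP53I3 rose (0.45). Of the handling genes KLF4 rose (0.51) and FOS (−1.06) and JUNB (−0.62) fell.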
